A study of Mus musculus with 4 samples.

Results

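The homeobox genes of the Hox, Pax, Pou, Irx, Meis, Pbx, Lhx, Nkx and sine oculis (Six4 and relatives) families were followed in hypothalamic RNA of mice with and without a ΔFosB transgene. Genes were taken by name, as every symbol on the array that starts with a family name and its number. The rule leaves out 11 genes of the same families (Lhx1, Lhx2, Lhx5, Lhx6, Lhx8, Six3, Six6, Nkx2-1, Nkx2-2, Irx5 and Pou3f2). It gave 95 genes of the 22347 gene names on the array, and each was read from its brightest probe set by mean log2 signal. By family these were 39 Hox, 14 Pou, 12 Nkx, 9 Pax, 6 sine oculis, 5 Irx, 4 Pbx, 3 Meis and 3 Lhx genes. Six3os1 and Six6os1, which are named as opposite-strand transcripts of Six3 and Six6 and are not themselves homeobox genes, fall under the rule and are counted among the 6.

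RNA of untreated male mice aged 12 weeks was measured on 4 Affymetrix arrays. The 2 control arrays were of wild-type mice, and the 2 ΔFosB arrays were of mice labelled ENOI2DeltaFosB, written ENO2DeltaFosB in the title. ΔFosB is a truncated FosB, a transcription factor of the AP-1 family. Eno2 encodes neuron-specific enolase. The cells in which the transgene is active, the strain, and whether an array held RNA of 1 animal or of a pool are not stated in the labels. Arrays of a group carry the letters A and B, with no word on whether these were separate animals. The p-values therefore cover the spread between these arrays alone, which may be technical.

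Homeobox proteins bind DNA through the homeodomain and divide the embryonic neural tube into regions. Hox genes act in the hindbrain and spinal cord, while Pax, Irx, Lhx, Nkx and sine oculis genes pattern territories that include the forebrain. Meis and Pbx proteins belong to the TALE class, named for a loop of extra residues in the homeodomain, and bind DNA as partners of each other and of Hox proteins. POU proteins carry a POU-specific domain beside the homeodomain. Many of these genes stay active in adult neurons of the region they pattern.

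The promoters of 4 of the 5 genes that passed the test are printed because the transgene encodes a DNA-binding factor of the AP-1 family. Each is the 250 bases before the annotated start, 5′ to 3′ on the strand of the gene, from RefSeq, build GRCm38.p6. Capitals mark the letters TGANTCA (a loose form of the AP-1 motif) and CCAAT (the CCAAT box) on either strand. N stands for any base. No matches of these motifs overlap in the windows shown.
Meis2, chr2:116064620-116064869, minus strand: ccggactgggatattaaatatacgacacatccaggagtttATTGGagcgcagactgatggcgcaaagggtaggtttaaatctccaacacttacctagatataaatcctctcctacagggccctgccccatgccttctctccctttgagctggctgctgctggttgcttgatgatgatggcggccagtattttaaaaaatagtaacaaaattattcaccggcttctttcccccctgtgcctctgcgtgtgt
Pou3f3, chr1:42695518-42695767, plus strand: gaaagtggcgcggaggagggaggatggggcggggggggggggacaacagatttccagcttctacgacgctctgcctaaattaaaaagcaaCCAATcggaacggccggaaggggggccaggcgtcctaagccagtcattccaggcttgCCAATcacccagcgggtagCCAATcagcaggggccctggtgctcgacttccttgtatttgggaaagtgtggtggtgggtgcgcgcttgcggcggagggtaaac
Pou3f4, chrX:110814129-110814378, plus strand: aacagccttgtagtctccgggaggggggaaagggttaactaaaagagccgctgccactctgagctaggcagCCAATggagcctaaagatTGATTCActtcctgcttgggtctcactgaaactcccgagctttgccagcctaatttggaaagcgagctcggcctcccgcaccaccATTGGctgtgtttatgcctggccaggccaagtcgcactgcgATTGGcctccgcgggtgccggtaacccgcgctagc
Nkx2-9, chr12:56613285-56613534, minus strand: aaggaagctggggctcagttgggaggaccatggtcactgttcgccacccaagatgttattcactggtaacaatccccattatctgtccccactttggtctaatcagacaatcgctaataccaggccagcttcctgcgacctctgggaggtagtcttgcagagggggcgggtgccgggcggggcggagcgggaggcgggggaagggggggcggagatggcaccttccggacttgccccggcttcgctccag
The Pou3f4 window held 1 match to the loose AP-1 letters, with T in place of N and its first base at position -161 from the start. The windows of Meis2, Pou3f3 and Nkx2-9 held 0. Of all 32851 windows of this length 6.75% held such a match, against 4 of 71 windows (5.63%) of the 60 homeobox-family genes that could be matched. CCAAT occurred 3 times in Pou3f3, 3 times in Pou3f4, 1 time in Meis2 and 0 times in Nkx2-9. Of all windows 33.8% held a CCAAT box, and of the windows of these families 42.3%. The Meis half-site TGACAG, searched on both strands, was in none of the 4 windows shown, in 15.9% of all windows and in 12.7% of those of the families. These matches describe letters and not bound sites.

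Summed signals were 68636594 to 68961786 per array, and the number of arrays limits the precision. Fosb read 1377 and 1219.8 in control and 1579 and 2189 in ΔFosB arrays, higher in both of the latter, and whether its probe set reads the transgene was not analysed here. To gauge dim signal, 1216 probe sets of olfactory and vomeronasal receptor genes were used, whose median was 299, and signals under their 95th percentile of 831 are called the receptor range. Of 14 defining hypothalamic genes, 9 were above that range on every array and 1 was in it on every array. Their summed signals were 21489 and 32606 in control and 53246 and 55003 in ΔFosB arrays, so control array A was the lowest.

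Most of the homeobox-family genes were dim. Genes with a single gene identifier and a mean log2 signal in the upper 60% of all genes, a signal of 895, were tested, and 37 of the 95 met this. A further 55 lay below the filter, and 3 (Hoxa3, Hoxb8 and Hoxd4) shared a probe set with another gene and were not tested. Past the filter were 8 of 39 Hox, 8 of 14 Pou, 7 of 12 Nkx, 4 of 4 Pbx, 3 of 5 Irx, 2 of 3 Meis, 2 of 9 Pax, 1 of 3 Lhx and 2 of 6 sine oculis genes. In 48 of the 95, of which 28 were Hox genes, the mean of each group lay in the receptor range.

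**Figure D1:**
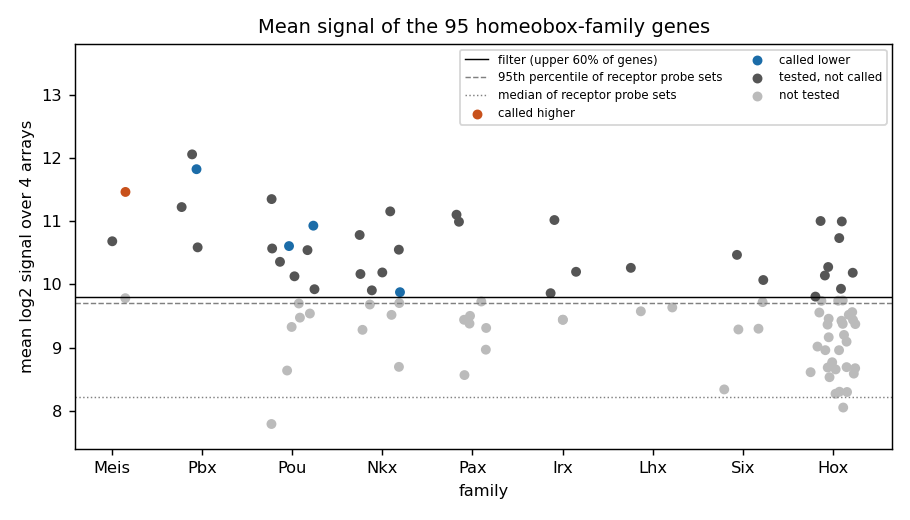
Mean log2 signal over the 4 arrays (vertical axis) for each of the 95 genes, by family (horizontal axis; the sideways position within a family has no meaning). The solid line is the filter at a signal of 895, the dashed and dotted lines are the 95th percentile (831) and the median (299) of the receptor probe sets, and 28 Hox genes lie below the filter with 3 more not tested for shared probe sets. Levels of different probe sets do not rank genes by transcript amount.

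Control and ΔFosB arrays were compared to ask which of these genes differed between the genotypes. Meis2 rose 1.52-fold on the ΔFosB arrays. Pbx3 fell 1.46-fold, Pou3f3 1.34-fold and Pou3f4 1.29-fold, and Nkx2-9 fell by at least 1.38-fold. Of the 95, no gene of the Hox, Pax, Irx, Lhx or sine oculis families past the filter passed the test.

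These 5 of 37 genes (13.5%) had a limma adjusted p under 0.05, against 13.3% of the 12759 genes tested. The share was near that of the array as a whole. In 1 of 37 the signal was higher (2.7%, against 5.84% of all genes) and in 4 of 37 it was lower (10.8%, against 7.44%). The groups did not overlap in 26 of 37 (70.3%, against 59.6% of all genes), 16 of them higher and 10 lower in ΔFosB. The median log2 fold change was 0.04 for the 37 genes and 0.0093 for all genes, and the median size without sign was 0.098 and 0.093. With a test that does not share variance between genes, 0 of the 37 passed, 10 of them at an unadjusted p under 0.05. In bulk tissue, fewer cells of a type and less RNA per cell cannot be told apart.

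**Figure D2:**
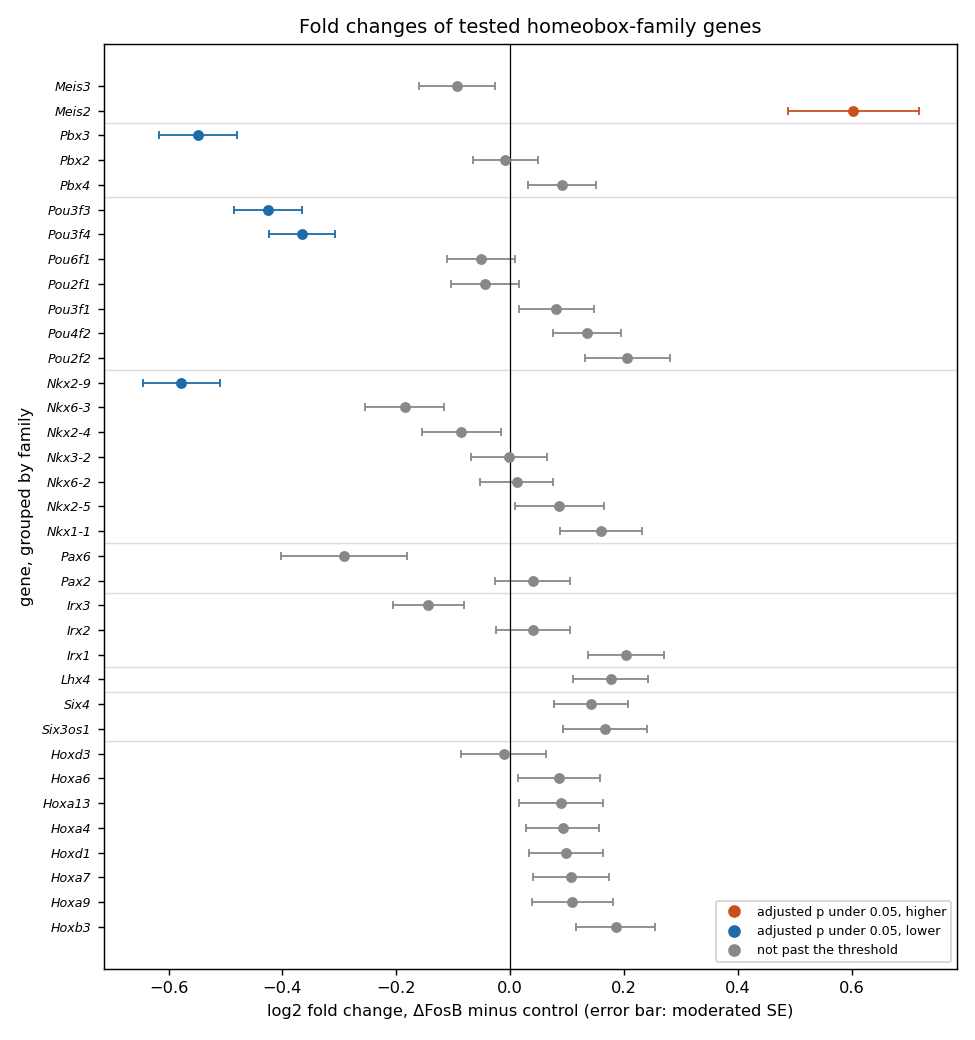
Log2 fold change of 35 of the 37 tested genes (horizontal axis, ΔFosB minus control; the bar is the moderated standard error), grouped by family (vertical axis). Meis2 at 0.60 lies to the right, Nkx2-9, Pbx3, Pou3f3 and Pou3f4 from -0.58 to -0.37 lie to the left, and the other 30 drawn lie from -0.29 to 0.21.

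Of the 6 Meis and Pbx genes past the filter, Meis2 rose, Pbx3 fell and 4 did not pass the test. Meis2, active in striatal and olfactory bulb neurons of the mouse, had signals of 2101 and 2489 on control arrays A and B and 3895 and 3098 on ΔFosB arrays A and B. Both ΔFosB arrays were above both control arrays, yet arrays of a group differed by 0.24 (control) and 0.33 (ΔFosB) on the log2 scale, where the median gene differed by 0.064 and 0.066. The log2 fold change of Meis2 was 0.60 (SE 0.11, 95% interval 0.34 to 0.87, limma adjusted p = 0.0119). Without control replicate A it was 0.48 and no longer passed (limma adjusted p = 0.0692).

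Pbx3, a DNA-binding partner of Hox and Meis proteins, had signals of 4638 and 4124 in control and 2937 and 3047 in ΔFosB arrays. The groups were well apart, with means of 4381 ± 364 in control and 2992 ± 78.1 in ΔFosB arrays (SD, n = 2). The log2 fold change was -0.55 (SE 0.069, 95% interval -0.71 to -0.39, limma adjusted p = 0.00184).

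Its relatives did not pass the threshold. Pbx2, a further partner of Hox proteins, had signals of 2423 and 2367 in control and 2382 and 2381 in ΔFosB arrays, so the groups overlapped (log2 fold change -0.0083, 95% interval -0.14 to 0.12). Pbx4 had 1479 and 1497 in control and 1572 and 1598 in ΔFosB arrays, which did not overlap (log2 fold change 0.091, limma adjusted p = 0.348). The difference between Pbx3 and its relatives was not itself tested.

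Meis3, the other Meis gene tested, had signals of 1703 and 1688 in control and 1659.7 and 1522 in ΔFosB arrays, lower in both but close (log2 fold change -0.093, 95% interval -0.24 to 0.059, limma adjusted p = 0.388). Meis1 lay below the filter, with signals of 811 to 997.

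**Figure D3:**
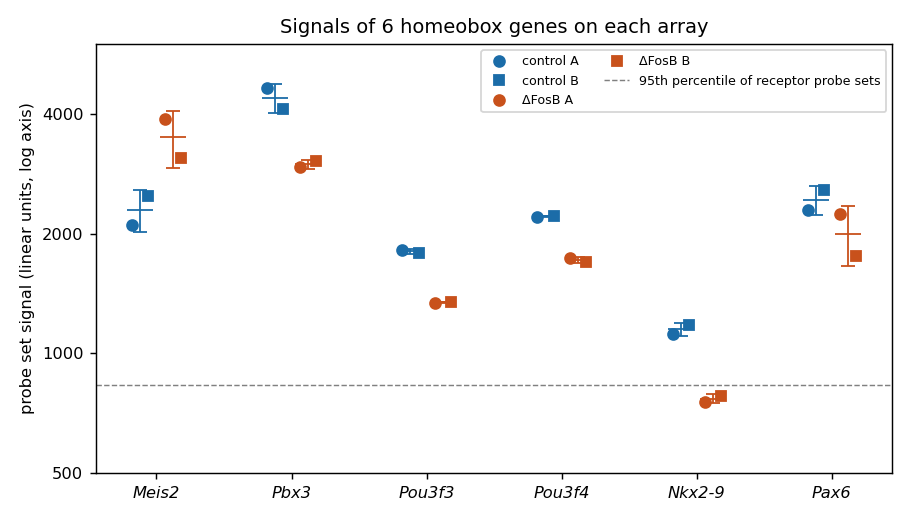
Probe set signal (vertical axis, linear units on a log axis) of Meis2, Pbx3, Pou3f3, Pou3f4, Nkx2-9 and Pax6 (horizontal axis) on each array. Circles are the A arrays, squares the B arrays, blue control and orange ΔFosB, with the group mean and SD (n = 2) as cross and bar, and the dashed line is a signal of 831. The groups do not overlap in these 6 genes, and the ΔFosB signals of Nkx2-9, 756 and 783, lie under the dashed line.

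Of the 8 POU genes past the filter, 2 fell, 0 rose and 6 did not pass. Pou3f3 (Brn1), a factor of cortical upper-layer and other forebrain neurons, had signals of 1823 and 1786 in control and 1342 and 1347 in ΔFosB arrays. Arrays of a group nearly coincided, and the log2 fold change was -0.42 (SE 0.06, 95% interval -0.56 to -0.29, limma adjusted p = 0.00317). Pou3f4 (Brn4), whose human gene is known from X-linked deafness, had 2207 and 2215 in control and 1738 and 1694 in ΔFosB arrays. Here too the groups lay apart by far more than their arrays, with a log2 fold change of -0.37 (SE 0.058, 95% interval -0.50 to -0.23, limma adjusted p = 0.00538).

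Pou3f1 (Oct6), the other POU3 gene of the 95 past the filter and a regulator of Schwann cell myelination, had a log2 fold change of 0.081 (95% interval -0.07 to 0.23), and its difference from Pou3f3 and Pou3f4 was not tested. Pou3f2, left out by the rule and named here after its values were seen, had 1809 and 1935 in control and 1451 and 1715 in ΔFosB arrays, lower in both (log2 fold change -0.25, limma adjusted p = 0.0991). Pou2f1 (Oct1), a widely expressed octamer-binding factor, had signals of 2719 and 2575 in control and 2551 and 2583 in ΔFosB arrays, which overlapped. Pou6f1 had 1554 and 1534 in control and 1484 and 1496 in ΔFosB arrays, slightly lower in both (log2 fold change -0.051). Pou4f2 (Brn3b), a factor of retinal ganglion cells, had 1413 and 1430.5 in control and 1581 and 1541 in ΔFosB arrays, higher in both but not past the threshold (log2 fold change 0.13, limma adjusted p = 0.176). Pou2f2, known from B cells, had a log2 fold change of 0.21 (limma adjusted p = 0.107). The 6 POU genes below the filter had signals of 202 to 982.

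Of the 7 Nkx genes past the filter, 1 fell and 6 did not pass. Nkx2-9, a gene of the ventral midline of the embryonic neural tube, had signals of 1118 and 1179 in control and 756 and 783 in ΔFosB arrays. The ΔFosB signals lay in the receptor range, so the fall in the group means is given as at least 1.38-fold, with 831 as the lower level. Since the ΔFosB signals are also under the filter of 895, the gene was tested only through its control arrays, and its place among the 5 calls and the 37 tested genes rests on them. The limma adjusted p was 0.00137 with the filter and 0.00235 in the fit of all genes without one.

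Nkx2-4, a close relative of Nkx2-1, had signals of 2354 and 2339.8 in control and 2339.7 and 2090.3 in ΔFosB arrays, where ΔFosB array B alone was clearly lower (log2 fold change -0.086, limma adjusted p = 0.449). Nkx6-2, a gene of oligodendrocytes and ventral neural progenitors, had 1688 and 1817 in control and 1749 and 1783 in ΔFosB arrays, overlapping (log2 fold change 0.012, 95% interval -0.13 to 0.16). Nkx2-5, best known from the heart, had 1370.4 and 1539.9 in control and 1609.9 and 1478 in ΔFosB arrays, also overlapping (log2 fold change 0.087). The values of Nkx6-3, Nkx3-2 and Nkx1-1 were -0.19, -0.002 and 0.16, with limma adjusted p of 0.117, 0.987 and 0.178. The 5 Nkx genes below the filter had signals of 377 to 881.

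Neither of the 2 Pax genes past the filter passed the test. Pax6, a regulator of forebrain and eye development, had signals of 2291 and 2578 in control and 2241 and 1759 in ΔFosB arrays. Both ΔFosB arrays were below both control arrays, ΔFosB array A narrowly (log2 fold change -0.29, SE 0.11, 95% interval -0.54 to -0.038, limma adjusted p = 0.121). The value depended on single arrays. It was -0.47 (limma adjusted p = 0.00701) without ΔFosB replicate A, -0.12 (limma adjusted p = 0.466) without ΔFosB replicate B, -0.38 (limma adjusted p = 0.164) without control replicate A and -0.21 (limma adjusted p = 0.377) without control replicate B.

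A second, dimmer Pax6 probe set had a difference of opposite sign. It had signals of 397 and 436 in control and 492 and 510.0 in ΔFosB arrays, a log2 difference of 0.27, with all 4 signals in the receptor range. With the mean of the probe sets, the log2 fold change of Pax6 was -0.012. Pax2, a gene of the midbrain-hindbrain boundary, had 2050.0 and 1961 in control and 2142 and 1983 in ΔFosB arrays, which overlapped (log2 fold change 0.04).

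**Figure D4:**
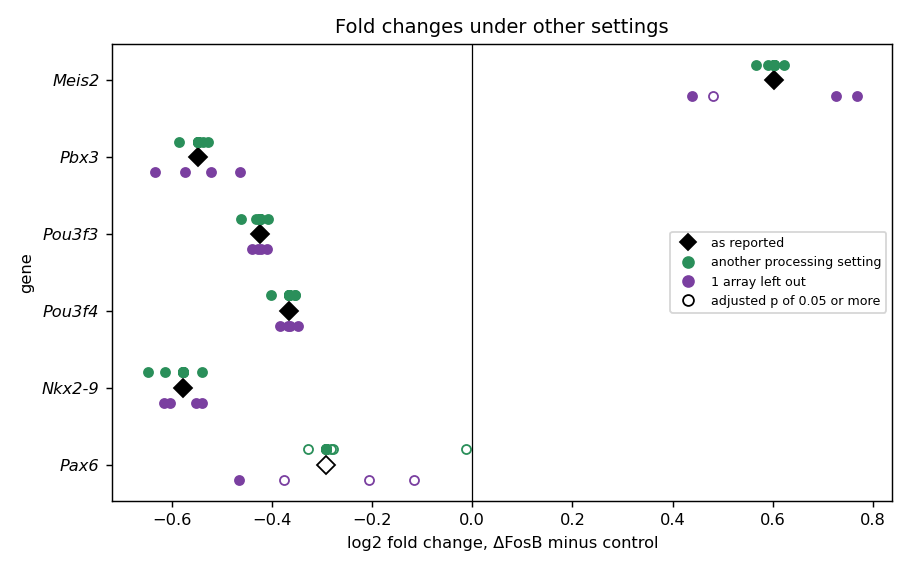
Log2 fold change (horizontal axis, ΔFosB minus control) of Meis2, Pbx3, Pou3f3, Pou3f4, Nkx2-9 and Pax6 (vertical axis) as reported (diamond), under other processing settings (green) and with 1 array left out (purple); open symbols have a limma adjusted p of 0.05 or more, and the unmoderated test is not drawn. The 5 genes that passed keep their sign, which leaving out 1 array cannot turn, as their groups do not overlap. Meis2 runs from 0.44 to 0.77, open in 1 case, and Pax6 from -0.47 to -0.012.

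None of the Irx, Lhx and sine oculis genes kept by the rule passed. Irx1, an Iroquois gene of neural patterning, had signals of 847 and 885 in control and 1006 and 988 in ΔFosB arrays, higher in both (log2 fold change 0.20, SE 0.066, limma adjusted p = 0.0819). Both control signals of Irx1 were under the filter, so it was tested only through its ΔFosB arrays. Irx2, its neighbour on the chromosome, had 2017 and 2069.7 in control and 2020.0 and 2185 in ΔFosB arrays, overlapping (log2 fold change 0.04). Irx3, which lies next to Fto, had 1249 and 1221 in control and 1124 and 1112 in ΔFosB arrays, lower in both (log2 fold change -0.14, limma adjusted p = 0.165). The signs of these Iroquois genes were not all the same, but none passed and the differences between them were not tested.

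Lhx4, a LIM homeobox gene of pituitary and motor neuron development, had signals of 1149.8 and 1158 in control and 1347 and 1263 in ΔFosB arrays, higher in both (log2 fold change 0.18, limma adjusted p = 0.114). Six4 had 1035 and 1009 in control and 1109 and 1147 in ΔFosB arrays, and Six3os1 1259 and 1415 in control and 1529.7 and 1467 in ΔFosB arrays, each higher in both. Their log2 fold changes were 0.14 and 0.17, with limma adjusted p of 0.181 and 0.175.

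Of the 39 Hox genes, 8 were past the filter and 0 of these passed the test in limma, 1 at an unadjusted p under 0.05. Hoxa4 had signals of 2019.6 and 1952 in control and 2193 and 2043 in ΔFosB arrays. Hoxa7 had 2023 and 1911 in control and 2036 and 2199.9 in ΔFosB arrays, and Hoxa9 had 1651 and 1623 in control and 1870.1 and 1667 in ΔFosB arrays. These Hoxa genes, which pattern the posterior axis, were slightly higher in both ΔFosB arrays, by 0.092, 0.11 and 0.11 on the log2 scale. The values of Hoxb3, Hoxd1, Hoxa13, Hoxa6 and Hoxd3 were 0.19, 0.098, 0.089, 0.085 and -0.011. Limma adjusted p was 0.117 for Hoxb3 and higher for the other 7. In 6 of the 8 the groups did not overlap, all higher in ΔFosB, against 59.6% of all tested genes in either direction, of which 4093 of 12759 were higher.

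Small upward values like those of the Hox genes were also seen in dim genes of the whole array. The 28 Hox genes below the filter had a median log2 fold change of 0.15, and 26 of them were above 0. Of all genes below the filter 79.8% were above 0, and of the receptor genes 81.2%. For all 55 homeobox-family genes below the filter the median was 0.12, with 49 above 0, against 0.12 for all 8506 genes below the filter. The 1178 receptor genes had a median of 0.15. After quantile normalization these medians were 0.035, 0.0017, 0.011 and 0.037. Quantile normalization gives every array the same distribution of signals. With each array centred on its median instead, they were 0.11, 0.088, 0.086 and 0.11. The cause of these values was not tested.

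Fitted without a filter, 7 of 92 homeobox-family genes passed (7.61%, against 8.09% of 21265 genes), which adds Pax9 and Six5. Pax9, a gene of pharyngeal and skeletal development, had signals of 430.2 and 450.0 in control and 575 and 564 in ΔFosB arrays (log2 fold change 0.37, SE 0.087, limma adjusted p = 0.0363). Six5, which lies beside the myotonic dystrophy gene Dmpk in humans, had 549 and 571 in control and 692 and 700.4 in ΔFosB arrays (log2 fold change 0.31, SE 0.08, limma adjusted p = 0.0487). All signals of both genes lay in the receptor range. After quantile normalization their values were 0.26 and 0.20, and neither passed (limma adjusted p = 0.0989 and 0.16). Neither passed when any 1 array was left out. In the RefSeq gene order Pax9 is next to Nkx2-9, whose signal was lower in ΔFosB.

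Regional homeobox genes of other families were read from the same fit. Of 30 such genes tested, 7 rose and 4 fell, where 5.84% of all genes tested were higher and 7.44% lower. Dlx1, a gene of forebrain GABAergic neurons, had 1155 and 1622 in control and 3284 and 3221 in ΔFosB arrays, where control array A was the lowest (log2 fold change 1.249, SE 0.13, limma adjusted p = 0.000861). Otp, required for neuroendocrine hypothalamic neurons, had 1125 and 1217 in control and 1721 and 1841 in ΔFosB arrays (log2 fold change 0.60, SE 0.07, limma adjusted p = 0.0013). Of the 11 genes of the same families that the rule leaves out, 7 were tested, 1 rose and 1 fell. Six3, a forebrain and eye gene, had 900.1 and 952 in control and 1233 and 1099 in ΔFosB arrays (log2 fold change 0.33, limma adjusted p = 0.0281), a call lost on leaving out either control array or ΔFosB replicate A (log2 fold change 0.29, 0.37 and 0.25). Lhx1, a LIM homeobox gene of the suprachiasmatic nucleus, had 1157 and 1128 in control and 903 and 874 in ΔFosB arrays (log2 fold change -0.36, limma adjusted p = 0.00926), a call lost without control replicate A (-0.34). The ΔFosB mean of Lhx1, 888, lay under the filter, so this gene too was tested only through its control arrays.

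Markers of regions and cell types also differed between the groups. For comparison, 5.84% of all genes tested were higher and 7.44% lower on the ΔFosB arrays. Defining hypothalamic genes were 7 higher and 0 lower of 10 tested. Genes of midbrain dopamine neurons were 0 higher and 8 lower of 10, with summed signals of 57610.0 and 47769 in control and 19080.3 and 19691 in ΔFosB arrays, and 9 of 12 were above the receptor range on every array and 1 in it. Myelin genes were 0 higher and 15 lower of 15, with summed signals of 125763 and 129459 in control and 88239.9 and 93921 in ΔFosB arrays, and all 15 were above that range on every array. Thalamic and habenular genes were 0 higher and 1 lower of 12, but A exceeded B in each group, by a median of 0.38 in control and 0.59 in ΔFosB arrays on the log2 scale, with summed signals of 52233 and 40589 in control and 41785 and 31743 in ΔFosB arrays. Cortical and hippocampal genes were 3 higher and 0 lower of 6 and striatal genes 3 higher and 3 lower of 9. Hindbrain genes were 2 higher (Cbln1 and Calb1) and 0 lower of 3, and 7 of 10 were in the receptor range on every array. Pituitary genes were 1 higher and 0 lower of 3. The lists share genes, so their counts are not independent. The pituitary gene was Pomc, also counted as hypothalamic, and Drd2 was counted as lower in both the dopamine and the striatal list. Vessel genes were 0 higher and 3 lower of 6, meningeal and choroid plexus genes 2 higher and 0 lower of 5, astrocyte genes 1 higher and 3 lower of 7 and general neuronal genes 1 higher and 2 lower of 10. The part of these differences in the values of Meis2, Pbx3, Pou3f3, Pou3f4 and Nkx2-9 was not tested.

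Position on the chromosome was read from the RefSeq gene order. Of 90 placed genes, 45 lay next to another of the 95, among them 9 of the 54 that are not Hox genes. Of the 5 genes that passed the test, Nkx2-9 was the one beside another of the 95.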

How the data were processed

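The deposited tables hold linear intensities per probe set from Affymetrix arrays of biotin-labelled RNA. Per the submitters' processing notes MAS5 was used, with no version stated. The scaling target, annotation release and genome build of the arrays are likewise not given, and detection calls were not used. The authors' sheet of 35474 probe sets equalled the series' value table (largest difference 0). Its 4 ratio columns were not used. Of 25175 named probe sets, 23015 had 1 gene identifier (21265 genes) and 2160 had several.

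Log2 intensities were taken without a pseudocount or further normalization. Genes were tested where the mean log2 signal of their probe set was in the upper 60% over genes (12759 genes), since the text fixing the filter names genes' probe sets; a filter over all probe sets (717) is an alternative chosen after seeing the data. Groups were compared with limma 3.58.1 in R 4.3.3 (lmFit, eBayes with intensity trend), ΔFosB minus control, with Benjamini-Hochberg adjustment and a threshold of 0.05. "At least" folds set signals of the dim group to 831 where they were lower. In simulated data (12759 genes, 200 changed), 80% of 1.25-fold and 100% of 1.5-fold changes were recovered, with 22 false calls. Because the spread was generated and not measured, these shares do not give the rate of false calls on the real arrays. Tested genes are named, except a few genes whose results are not reported here, up to 3 not passed per family with array signals (highest mean signal), and up to 3 of other lists by the largest statistic. The genes and lists were chosen with earlier results of these data known. Alternatives cover normalization, pseudocount, filter, variance model, probe sets, replicate letters and each array left out.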

Additional observations from a re-analysis of the deposited data

How the results depend on the processing

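The 5 homeobox-family genes that passed kept their sign under all alternatives in which they were tested, but most of these could not have turned it. The filter, variance model, mean of probe sets and replicate letter left their log2 fold changes as they were. As their groups did not overlap, a pseudocount or leaving out 1 array could not turn the sign. Only quantile normalization and median centring could have done so. From 4 to 6 of the 37 genes passed with 1 array left out, against 5 with all arrays, and 8 to 12 of the 30 other regional homeobox genes, against 11. With the filter at the upper 40% of signal, 3 of 15 and 3 of 8 passed, as fewer genes were tested. With the unmoderated test 0 and 0 passed (limma fit without shared variance), 10 and 13 at an unadjusted p under 0.05; 2 residual degrees of freedom are left per gene. The filter over all probe sets, chosen after seeing the data, gave 6 of 53, adding Hoxc4 (0.28, limma adjusted p = 0.0372, and 0.061 without a filter), named after its values were seen. With the replicate letter as a replicate block, 6 and 15 passed, which adds Pax6 (limma adjusted p = 0.00375); the labels do not say that a letter marks a shared animal or day, and across genes the differences of A from B in the groups correlated at 0.269. Of the 32 genes that did not pass, 8 changed sign under some of the 16 alternatives, all with values from -0.024 to 0.04, and Pax6 was the one called under some. Signals in or near the receptor range limit the 55 genes below the filter.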
